A study of Mus musculus with 17 samples.

Results

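Glycolysis and hypoxia response genes were followed in Kupffer cells (KCs), macrophages that reside in the liver, sorted from mice. The set holds 34 genes picked by symbol, 21 of them glycolytic (glucose transporters, enzymes of the pathway, lactate export and enzymes that set its rate) and 13 other genes of the hypoxia response, among the 25124 genes of each expression table. All 34 were present in the 3 tables and passed the filter on low values in each.

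KCs were sorted from livers as TIM4+CD206+ cells (3 samples without tumour and 3 with) and as TIM4+CD206hi cells (3 without and 3 with), hereafter CD206+ and CD206hi KCs. The tumour-bearing mice had received KPC cells, a mouse pancreatic carcinoma line, into the portal vein 2 weeks earlier, and the tumour-free mice were untreated. Another set compared KCs of 3 Id3f/f mice, which carry floxed alleles of Id3, with those of 2 Clec4fCreId3f/f mice, all without tumour. In the latter Cre is driven from Clec4f, a gene of KCs. The labels do not say which samples came from the same mouse, so p-values measure the spread between these samples. The tables give no read totals, so the depth behind each value is unknown.

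Glycolysis splits glucose into pyruvate, and lactate dehydrogenase and a monocarboxylate transporter turn pyruvate into lactate and pass it out of the cell. In low oxygen the prolyl hydroxylases (EGLN proteins) no longer mark HIF-1α for breakdown, and HIF-1 binds short motifs with the core ACGTG or GCGTG beside many glycolytic genes and beside targets such as Vegfa and Bnip3. In macrophages, inflammatory stimuli raise HIF-1α and glycolysis also when oxygen is not low.

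The promoters of the 6 members that passed the test in any comparison are given here because the HIF core motif is the feature that the set is known to share. Each window runs from 250 bases before to 50 bases after a RefSeq gene start (GRCm38.p6), is written along the gene's own strand, and has ACGTG or GCGTG, on either strand, in capitals. Where RefSeq lists several starts, the window with the most matches is shown.
Egln3, chr12:54203825-54204124, minus strand: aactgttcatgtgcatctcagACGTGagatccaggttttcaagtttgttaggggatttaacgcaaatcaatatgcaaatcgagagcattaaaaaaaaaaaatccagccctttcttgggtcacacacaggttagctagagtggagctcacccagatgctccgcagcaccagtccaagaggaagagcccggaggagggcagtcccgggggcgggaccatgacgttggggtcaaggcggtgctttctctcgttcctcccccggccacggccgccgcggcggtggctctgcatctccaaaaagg
Ldha, chr7:46845554-46845853, plus strand: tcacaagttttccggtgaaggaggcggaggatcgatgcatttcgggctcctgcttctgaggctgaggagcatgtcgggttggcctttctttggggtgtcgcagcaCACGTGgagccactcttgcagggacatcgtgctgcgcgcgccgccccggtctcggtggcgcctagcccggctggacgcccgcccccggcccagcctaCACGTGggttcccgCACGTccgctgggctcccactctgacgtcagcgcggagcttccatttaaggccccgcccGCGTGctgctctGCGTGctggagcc
Pdk1, chr2:71872974-71873273, plus strand: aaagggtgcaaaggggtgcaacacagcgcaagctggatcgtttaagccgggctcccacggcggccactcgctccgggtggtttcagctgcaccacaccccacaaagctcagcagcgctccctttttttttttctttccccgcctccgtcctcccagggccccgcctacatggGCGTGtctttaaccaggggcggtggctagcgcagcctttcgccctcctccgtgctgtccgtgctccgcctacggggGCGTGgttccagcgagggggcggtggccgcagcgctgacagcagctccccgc
Pfkfb4, chr9:108991652-108991951, plus strand: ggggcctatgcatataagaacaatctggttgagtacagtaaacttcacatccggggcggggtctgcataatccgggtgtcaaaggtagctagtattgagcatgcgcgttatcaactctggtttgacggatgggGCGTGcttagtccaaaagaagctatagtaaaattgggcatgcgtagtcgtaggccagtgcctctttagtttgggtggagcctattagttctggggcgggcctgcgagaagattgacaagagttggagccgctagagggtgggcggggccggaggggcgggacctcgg
Hilpda, chr6:29272376-29272675, plus strand: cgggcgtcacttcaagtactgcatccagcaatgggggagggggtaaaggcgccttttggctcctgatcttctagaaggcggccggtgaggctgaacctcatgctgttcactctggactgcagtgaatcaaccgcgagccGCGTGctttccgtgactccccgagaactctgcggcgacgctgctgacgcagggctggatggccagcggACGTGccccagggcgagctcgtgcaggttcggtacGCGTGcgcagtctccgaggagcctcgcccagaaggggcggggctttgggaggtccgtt
Ddit4, chr10:59951721-59952020, minus strand: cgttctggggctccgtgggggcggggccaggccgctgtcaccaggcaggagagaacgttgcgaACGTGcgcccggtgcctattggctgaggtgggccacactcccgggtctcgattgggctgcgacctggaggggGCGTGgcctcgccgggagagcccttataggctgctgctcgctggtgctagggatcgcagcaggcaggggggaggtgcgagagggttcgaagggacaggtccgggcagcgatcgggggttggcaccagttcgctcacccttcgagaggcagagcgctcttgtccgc

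RefSeq gave 48 such windows for 32 of the members, and none for Slc2a3 or Ndrg1. ACGTG or GCGTG lay in 39 of them (81.2%), in 25 of 32 windows of glycolytic members (78.1%) and in 14 of 16 of other hypoxia members (87.5%). Of all 32851 RefSeq windows 43.8% held it. The genes were picked for their known tie to glycolysis and hypoxia, so a larger share was likely beforehand and tests nothing. Windows of the same gene that overlap, as for Eno1 and Aldoa, were counted separately. Ldha, which makes lactate from pyruvate, had the most matches, 7 in its shown window. Of these, 4 come from CACGTG, a palindrome read on both strands that was found in 5 member windows (10.4%) and in 7.15% of all windows. The E-boxes CAGCTG (12.5% of member windows against 16.3% of all) and CACCTG or CAGGTG (16.7% against 20.2%), the letters read by the E proteins that ID3 holds back, were also counted. These are letters in a window and not bound sites.

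Levels are given on the log2 scale of the deposited values. Between genes they are compared after subtracting log2 of the transcript length in kb, which gives a level per kb. In tumour-free CD206+ KCs the most abundant member per kb was Gapdh, which oxidizes glyceraldehyde 3-phosphate, at 16.01. Aldoa (aldolase, 15.31), Ldha (14.99), Eno1 (enolase, 14.90), Pkm (pyruvate kinase, 14.61) and Tpi1 (triose phosphate isomerase, 13.83) came next. Hk3 was the most abundant hexokinase, the enzyme that traps glucose in the cell, at 13.15 per kb, against 9.61 for Hk1 and 7.63 for Hk2. Slc2a1, the widely expressed glucose transporter GLUT1, stood at 9.51 and Slc2a3 (GLUT3) at 7.17. The least abundant members were Vegfa, the endothelial growth factor, at 2.82 and Egln3, a prolyl hydroxylase that HIF itself induces, at 3.62. Enzymes of the main glycolytic steps thus stood at the top of the set before any tumour.

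The tables of the CD206+ and CD206hi subsets were normalized separately, so their levels stand side by side without a test. In tumour-free samples Hif1a, the oxygen-sensitive subunit of HIF-1, averaged 8.45 ± 0.46 (SD, n = 3) in CD206+ and 11.21 ± 0.60 (SD, n = 3) in CD206hi KCs. Ndrg1, a hypoxia-induced gene, averaged 9.13 ± 1.12 and 12.07 ± 0.46, and Vegfa 4.29 ± 0.17 and 7.28 ± 0.39 (SD, n = 3 each). Hk3 ran the other way, at 14.84 ± 0.53 in CD206+ and 13.35 ± 0.43 in CD206hi KCs. The summed level of 13 endothelial markers was 14.15 to 15.07 in tumour-free CD206+ libraries and 17.84 to 18.45 in CD206hi libraries, and its part in these values was not tested. Clec4f, the defining marker of KCs, lay between 16.11 and 19.65 in all 17 libraries. Fewer cells of a type and less RNA per cell cannot be told apart in such bulk samples.

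**Figure D1:**
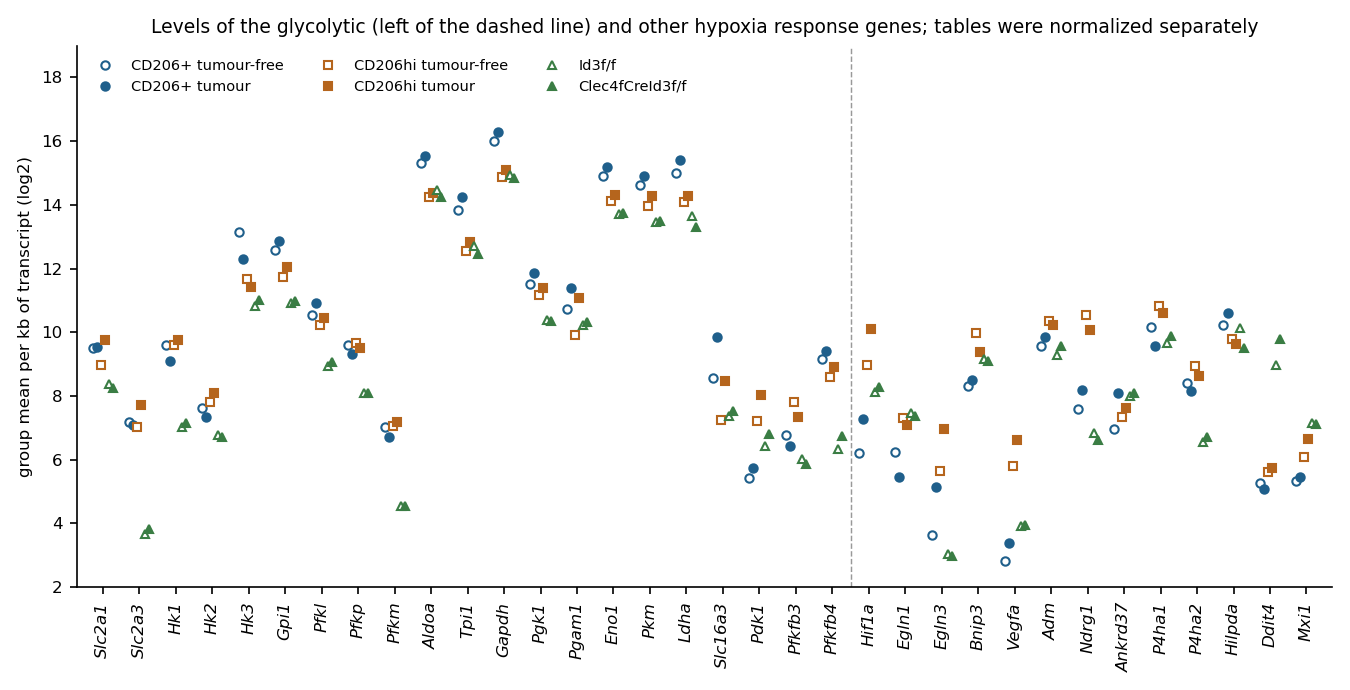
Mean level per kb of transcript (y axis, log2) of each of the 34 genes (x axis) in the 6 groups, with open symbols for tumour-free CD206+, tumour-free CD206hi and Id3f/f KCs and filled symbols for the tumour or Cre group. Gapdh (16.01 per kb in tumour-free CD206+ KCs) and the enzymes near it stand above the hypoxia response genes, and levels of different colours come from tables normalized separately.

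With tumour, most of the set was a little higher and almost none of it passed the test. In CD206+ KCs 14 of 21 glycolytic members and 9 of 13 other hypoxia members were higher with tumour, with median differences of 0.27 and 0.26 on the log2 scale, where the median over all 13233 genes tested was 0.02. Only Egln3 had an adjusted p under 0.05 (limma, Benjamini-Hochberg over all genes tested). That is 1 of 34 members (2.94%), beside 3.54% of all genes (2.55% higher and 0.998% lower with tumour). An unadjusted p under 0.05 (limma) was found for 10 of the 34 members, beside 17.2% of all genes. In CD206hi KCs 18 of 21 glycolytic members were higher with tumour, with a median of 0.23, while 6 of 13 other hypoxia members were higher and their median was -0.12. The median over all 14561 genes there was 0.03, and it moved to -0.13 when libraries were centred on their medians and to -0.11 with quantile normalization, so small differences in this subset depend on the scaling. The glycolytic median was 0.07 with median centring and 0.34 with quantile normalization, the other hypoxia median -0.28 and -0.15, and Hk1, Pfkm and Aldoa went from higher to lower with median centring. No member passed limma's test in CD206hi KCs, where 7.23% of all genes did (5.21% higher and 2.03% lower with tumour). There 9 of the 34 members had an unadjusted p under 0.05, beside 21.1% of all genes. Only with quantile normalization, among the changes of scaling or filter, did 1 member, Hif1a, pass there.

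The groups did not overlap for more members than the calls show. With tumour 10 members lay wholly above and 4 wholly below the tumour-free samples in CD206+ KCs, 41.2% of the set, beside 23.4% of all genes tested (12.9% above and 10.5% below). In CD206hi KCs 10 lay above and 3 below, 38.2% of the set, beside 30.7% of all genes (15.6% above and 15.2% below). Of the 10 above in each subset 5 were the same genes: Pgam1, Slc16a3, Hif1a, Egln3 and Vegfa. None was below in both. How many of all genes lay above or below in both was not counted, so no share stands beside these 5. The subset tables share no samples, and whether their samples came from the same mice is not stated.

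**Figure D2:**
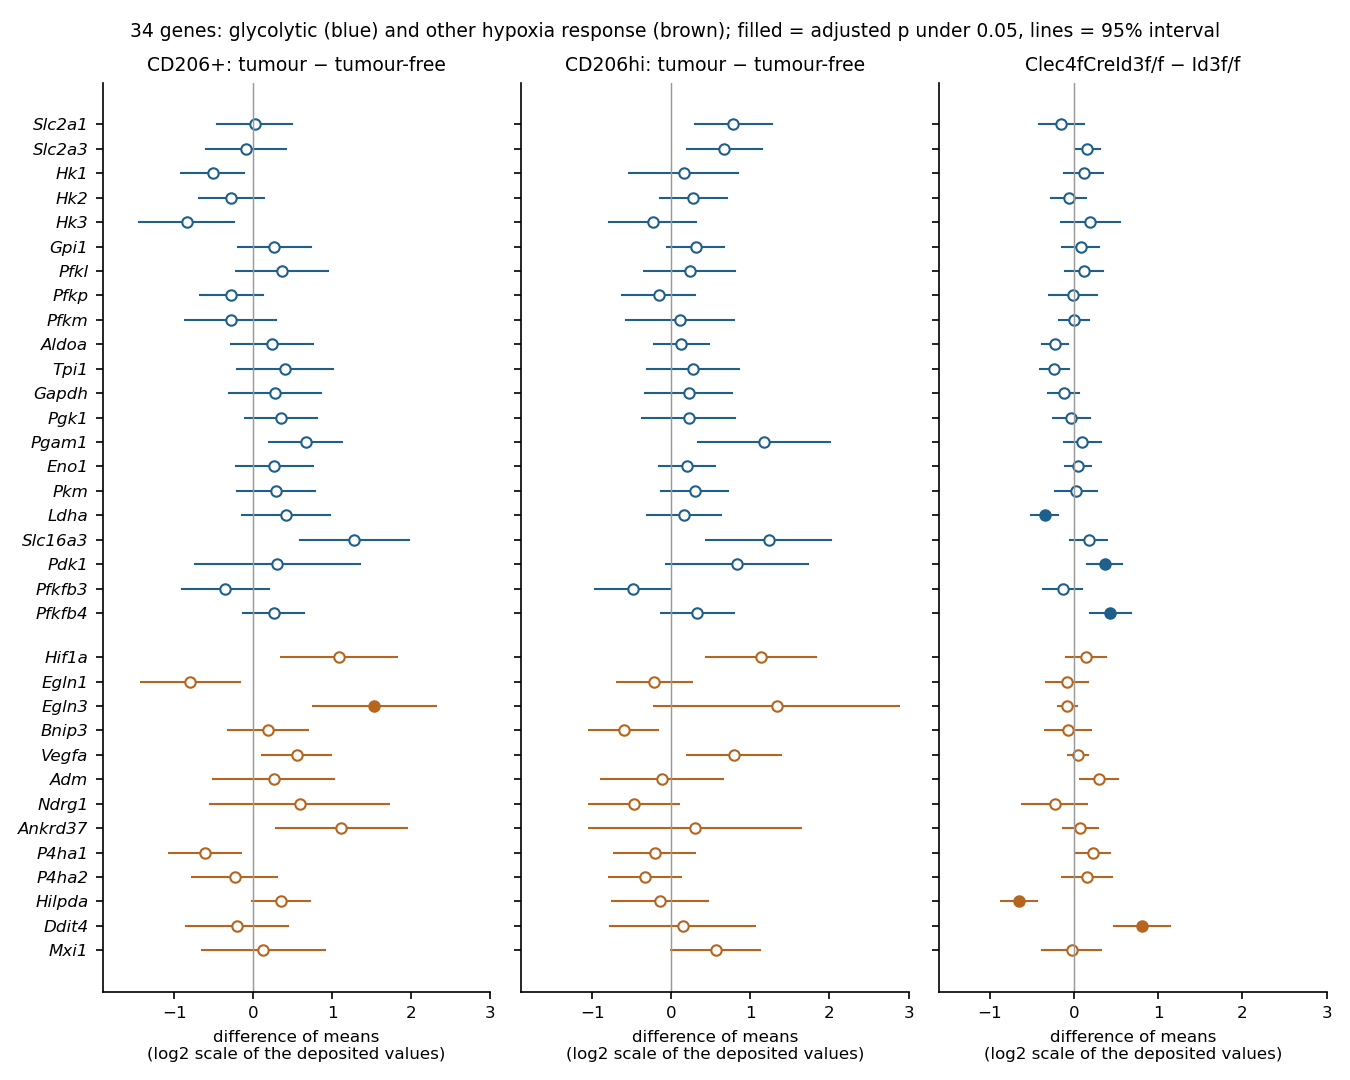
Difference between group means (x axis, log2) with its 95% interval for each of the 34 genes (y axis) in the tumour comparison of CD206+ KCs, that of CD206hi KCs and the Id3 comparison. Filled points have an adjusted p under 0.05: Egln3 in CD206+ KCs (1.53), and Ldha, Pdk1, Pfkfb4, Hilpda and Ddit4 in the Id3 comparison.

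The glycolytic enzymes varied together between tumour-free samples, and 1 library set much of their difference. Ldha stood at 16.16, 15.28 and 16.10 in the tumour-free CD206+ samples 1 to 3 and at 16.18, 16.32 and 16.28 with tumour. Gapdh gave 16.82, 15.92 and 16.81 without tumour and 16.75, 16.78 and 16.86 with it. In both genes the second tumour-free sample was low, and the other tumour-free samples lay beside the tumour samples. That sample had the lowest value of its group for 15 of the 21 glycolytic members (71.4%), against 41.4% of all genes tested, and for 3 of the 13 other hypoxia members. Without it, the median difference of the glycolytic members fell from 0.27 to 0.05, that of the other hypoxia members to 0.05, Aldoa became -0.01 and Gapdh -0.02. Ndrg1 shared its pattern, at 9.95, 7.85 and 9.59 without tumour and 10.02, 9.60 and 9.55 with it, and its difference went from 0.59 to -0.05. The same library had the highest summed level of 10 genes of the dissociation stress response in its group (14.36, against 12.98 and 13.52) and the lowest of the monocyte markers (13.82, against 15.24 and 14.70), and the part of either was not tested.

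In CD206hi KCs the second tumour-free sample was the lowest of its group for 12 of 21 glycolytic members (57.1%, against 35.1% of all genes tested), and the second tumour sample was the highest of its group for 16 of 21 (76.2%, against 34.2%). In CD206+ KCs the second tumour sample was the highest for 15 of 21 (71.4%, against 34.3%). Pdk1, the kinase that keeps pyruvate out of the mitochondrial cycle, ran against this pattern and was high in both second tumour-free samples. It stood at 7.28, 8.84 and 7.26 in tumour-free CD206+ KCs and at 9.12, 10.51 and 9.12 in tumour-free CD206hi KCs, while the tumour samples gave 7.99, 8.58 and 7.73, and 10.28, 10.39 and 10.59. Its groups overlapped in both subsets. Leaving out the second tumour-free sample in CD206hi KCs brought the difference of Pdk1 from 0.83 to 1.30 with an adjusted p of 0.00353 (limma), and the number of members that passed from 0 to 6 as that of all genes went from 1053 to 3653. The 6 were Slc2a1, Slc2a3, Slc16a3, Pdk1, Hif1a and Mxi1, all higher with tumour. Calls thus rose over the whole table and not in the set alone, and their share of the genes tested in this fit was not counted.

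**Figure D3:**
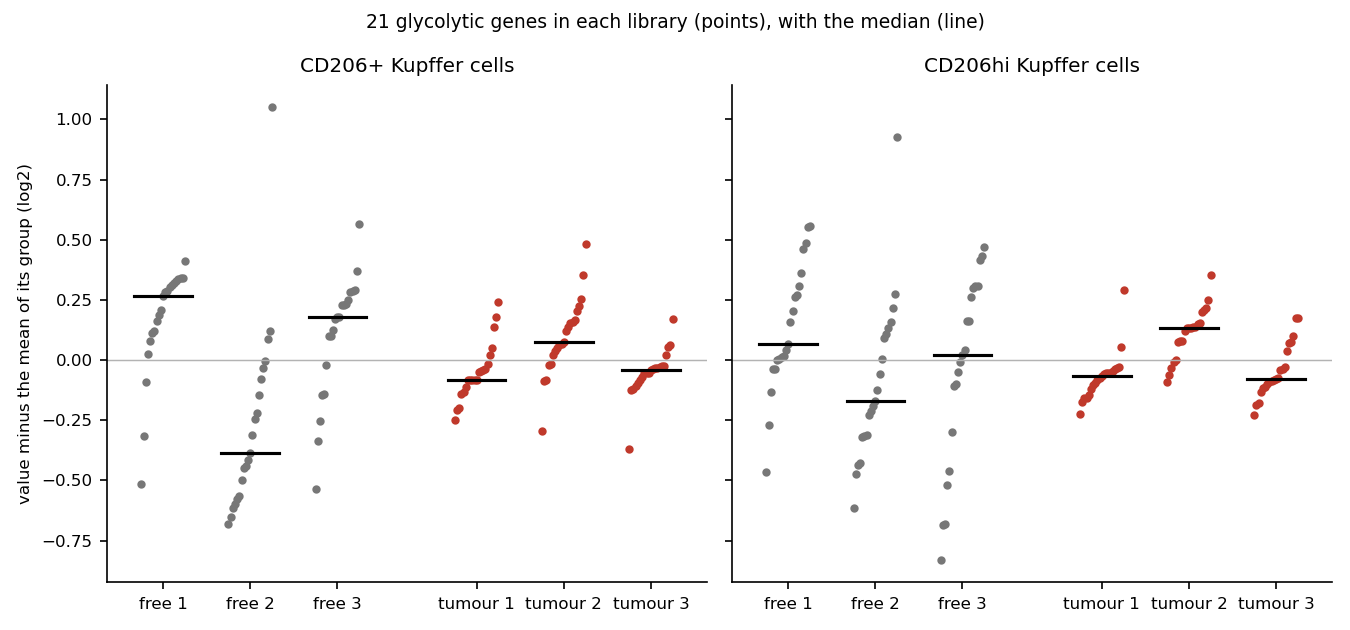
Each of the 21 glycolytic genes in each library of the tumour comparisons, as its value minus the mean of its group (y axis, log2), with the median of the 21 as a line. The second tumour-free CD206+ library lies below the others and holds the lowest value of its group for 15 of the 21 genes.

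Among the glucose transporters, the subsets gave different values. Slc2a1 stood at 10.84, 10.36 and 10.84 in tumour-free CD206hi KCs and at 11.31, 11.72 and 11.38 with tumour. Every tumour sample lay above every tumour-free sample, and the difference was 0.79 (SE 0.21, fold 1.72, limma adjusted p = 0.0707). In CD206+ KCs Slc2a1 gave 11.34, 10.99 and 11.32 without and 10.99, 11.59 and 11.13 with tumour, groups that overlapped, with a difference of 0.02 (95% interval -0.45 to 0.49) that became -0.05 with median centring. Slc2a3 was likewise apart in CD206hi KCs, with a difference of 0.67 (adjusted p = 0.109), and overlapped in CD206+ KCs, with -0.09. Both transporters passed the test in CD206hi KCs without the second tumour-free sample (limma adjusted p = 0.0434 and 0.0466). The difference between the subsets was not tested, since their tables were normalized separately.

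All 3 hexokinases were lower with tumour in CD206+ KCs. Hk3 gave 15.17, 14.22 and 15.12 without and 13.79, 14.03 and 14.17 with tumour, so the groups did not overlap although tumour-free sample 2 lay close to the tumour samples. The difference was -0.84 (SE 0.26, fold 0.558) with an adjusted p of 0.142, of 0.0413 with the replicate number as a block and of 0.00294 without tumour-free sample 2 (limma). Hk1, the constitutive hexokinase, lay at 11.56 to 11.99 without and 11.16 to 11.22 with tumour (difference -0.51, adjusted p = 0.178), and Hk2, the hexokinase that HIF-1 induces, differed by -0.28 with overlapping groups. In CD206hi KCs the groups overlapped for each of the 3, with differences from -0.24 for Hk3 to 0.28 for Hk2. Hk3 shares its locus with Unc5a on the opposite strand, and the library kit does not mark strand.

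The 6 members of upper glycolysis, from glucose 6-phosphate isomerase (Gpi1) to triose phosphate isomerase (Tpi1), overlapped between groups in CD206+ KCs. There they ran from -0.28 for Pfkm and for Pfkp, phosphofructokinases, to 0.41 for Tpi1. In CD206hi KCs they ran from -0.16 for Pfkp to 0.31 for Gpi1, and Gpi1 alone did not overlap (13.23, 13.15 and 13.43 without and 13.55, 13.70 and 13.49 with tumour, adjusted p = 0.302). In the payoff steps of lower glycolysis, 4 enzymes gave small differences. Gapdh, Pgk1 (phosphoglycerate kinase), Eno1 and Pkm were 0.27 to 0.36 higher in CD206+ and 0.20 to 0.29 higher in CD206hi KCs, with adjusted p of 0.425 or more in CD206+ and 0.387 or more in CD206hi KCs. Only Pgk1 in CD206+ and Eno1 in CD206hi KCs had groups that did not overlap. Gapdh shares stretches of at least 100 bases at 98% identity with 41 other annotated genes, 38 of them pseudogenes, and Pgk1, Pgam1, Eno1 and Pkm share such stretches with 3, 1, 2 and 1, so reads could be split between copies.

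Pgam1, the phosphoglycerate mutase between Pgk1 and Eno1, stood apart from its neighbours. Its values were 11.25, 11.65 and 11.79 in tumour-free and 12.03, 12.48 and 12.17 in tumour-bearing CD206+ KCs. In CD206hi KCs they were 11.30, 11.02 and 9.92 without and 11.82, 12.13 and 11.80 with tumour. All tumour samples lay above all tumour-free samples in both subsets, and the third tumour-free CD206hi sample was far below the others. The differences were 0.66 (SE 0.20, adjusted p = 0.131, and 0.0356 with the replicate block) and 1.17 (SE 0.35, adjusted p = 0.109). Without the third sample the CD206hi difference was 0.76, with an adjusted p of 0.0404 (limma).

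Slc16a3, which encodes the lactate exporter MCT4, had the largest difference of any glycolytic member in both subsets. Tumour-free CD206+ samples gave 10.79, 10.00 and 11.24 and tumour samples 11.81, 12.18 and 11.87. In CD206hi KCs the values were 9.90, 9.48 and 8.66 without and 10.41, 10.93 and 10.40 with tumour. The groups were separate in both, with differences of 1.28 (SE 0.30, fold 2.42, adjusted p = 0.062) and 1.23 (SE 0.34, fold 2.35, adjusted p = 0.0813). In CD206+ KCs it passed with the replicate block (limma adjusted p = 0.0116), with quantile normalization (adjusted p = 0.0496) and without tumour-free sample 2 or 3, with differences of 0.94 (adjusted p = 0.0257) and 1.56 (adjusted p = 0.0465). Ldha, the step before export, differed by 0.41 in CD206+ KCs (adjusted p = 0.453) and by 0.16 in CD206hi KCs (adjusted p = 0.655), and without the second tumour-free CD206+ sample by 0.13.

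Of the enzymes that set glycolytic rate besides Pdk1, Pfkfb3 and Pfkfb4 make and break fructose 2,6-bisphosphate, the activator of phosphofructokinase. Pfkfb3 was lower with tumour by 0.35 in CD206+ and by 0.48 in CD206hi KCs, where it gave 10.35, 9.88 and 10.04 without and 9.38, 9.76 and 9.67 with tumour. These CD206hi groups did not overlap, and the adjusted p was 0.234. Pfkfb4 was higher by 0.26 and 0.33, with adjusted p of 0.504 and 0.375.

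**Figure D4:**
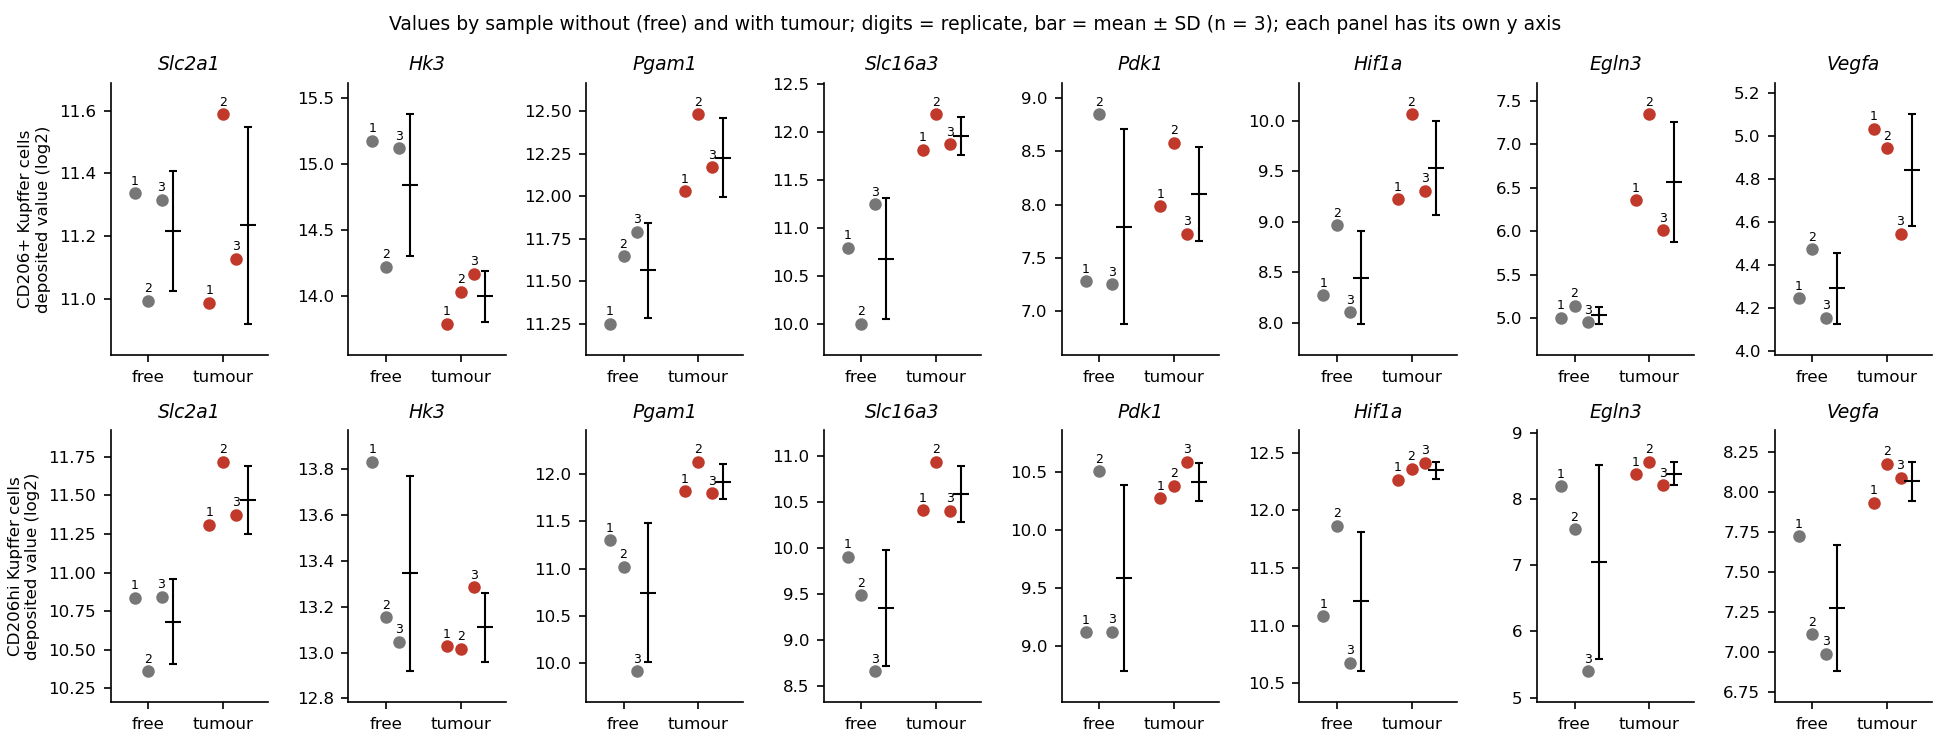
Values of 8 genes (y axis, log2, each panel with its own range) in every CD206+ sample (upper row) and CD206hi sample (lower row) without and with tumour, with the replicate as a digit and the mean ± SD (n = 3) as a bar. Pgam1, Slc16a3, Hif1a, Egln3 and Vegfa have every tumour sample above every tumour-free sample in both subsets, while Slc2a1 does so in CD206hi KCs, with 11.31 to 11.72 against 10.36 to 10.84.

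Egln3, one of the prolyl hydroxylases that sense oxygen, had the largest difference of the set in both subsets. It was at 5.01, 5.15 and 4.96 in tumour-free CD206+ KCs and at 6.35, 7.34 and 6.01 with tumour. The tumour-free samples lay close together and every tumour sample lay above them, the second by the most. Egln3 rose by 1.53 (SE 0.34, 95% interval 0.76 to 2.31, fold 2.89, limma adjusted p = 0.0496). The adjusted p stayed under 0.05 in 3 of 12 alternatives. It lay between 0.0518 and 0.163 when any sample other than tumour sample 3 was left out, and no member passed without tumour sample 1 or 2. In CD206hi KCs Egln3 gave 8.19, 7.54 and 5.40 without and 8.37, 8.56 and 8.21 with tumour, where the low value of tumour-free sample 3 set most of the difference of 1.34 (SE 0.66, adjusted p = 0.297), which was 0.51 without it. Egln1, the main prolyl hydroxylase in normal oxygen, gave 8.16, 8.22 and 7.91 without and 6.92, 7.28 and 7.70 with tumour in CD206+ KCs, separate groups with a difference of -0.80 (adjusted p = 0.179), and differed by -0.22 in CD206hi KCs.

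Hif1a gave 8.27, 8.97 and 8.11 in tumour-free and 9.22, 10.06 and 9.31 in tumour-bearing CD206+ KCs. In CD206hi KCs it gave 11.08, 11.87 and 10.68 without and 12.27, 12.36 and 12.41 with tumour. No sample of one group reached the other in either subset, and the second tumour-free sample was the highest of its group in both. The differences were 1.08 (SE 0.32, fold 2.12, adjusted p = 0.122) and 1.14 (SE 0.30, fold 2.20, adjusted p = 0.0684). With the replicate block the CD206+ adjusted p was 0.0085, and without the second tumour-free sample the differences were 1.34 (adjusted p = 0.0327) and 1.47 (adjusted p = 0.00248) by limma. The summed level of the dissociation stress genes was highest of the tumour-free samples in the second of both subsets (14.36 and 14.68) and lowest in the third tumour-free CD206hi sample (12.41, against 14.41 to 14.54 with tumour), in which Hif1a, Egln3, Slc16a3 and Pgam1 were lowest too. Egln3, Slc16a3 and Pgam1 were lower in the second than in the first tumour-free CD206hi sample. Slc16a3 was also the lowest of its group in the second tumour-free CD206+ sample. The part of the stress response in these values was not tested.

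With the replicate number as a block, 6 members passed in CD206+ KCs: Egln3, Hif1a, Slc16a3, Pgam1, Ankrd37 and Hk3, while the genes called over the whole table went from 469 to 1026. Sample 2 of both groups deviated together in that table, but numbers 1 and 3 were not shown to pair. Over all alternatives the adjusted p (limma) in CD206+ KCs ran from 0.00294 to 0.397 for Hk3, from 0.0116 to 0.204 for Slc16a3, from 0.0085 to 0.318 for Hif1a, from 0.0356 to 0.346 for Pgam1 and from 0.0345 to 0.372 for Ankrd37. In CD206hi KCs it ran from 0.0434 to 0.299 for Slc2a1, from 0.0466 to 0.447 for Slc2a3, from 0.0404 to 0.345 for Pgam1, from 0.0486 to 0.301 for Slc16a3, from 0.00248 to 0.229 for Hif1a and from 0.00353 to 0.557 for Pdk1. None of these genes thus passed under every setting.

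The other targets did not move as a group. Vegfa was low in CD206+ KCs (4.24, 4.47 and 4.15 without and 5.03, 4.94 and 4.54 with tumour) and higher in CD206hi KCs (7.73, 7.11 and 6.99 without and 7.94, 8.18 and 8.09 with tumour). The groups were separate in both, with differences of 0.55 (adjusted p = 0.187) and 0.79 (adjusted p = 0.129). Ankrd37, an ankyrin repeat gene induced by HIF-1, gave 7.68, 6.49 and 6.40 without and 8.10, 7.94 and 7.87 with tumour in CD206+ KCs (difference 1.12, adjusted p = 0.154, and 0.0378 with the block), and overlapped in CD206hi KCs, where 1 tumour-free sample stood at 8.59. It overlaps Lrp2bp and Ufsp2 on the opposite strand.

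Other members, apart from Mxi1, were lower with tumour or took opposite signs in the subsets. P4ha1, a collagen prolyl hydroxylase, gave 12.45, 12.34 and 11.79 without and 11.56, 11.55 and 11.63 with tumour in CD206+ KCs (difference -0.61, adjusted p = 0.155). Bnip3, a mitophagy receptor, gave 10.73, 10.79 and 10.87 without and 10.18, 10.47 and 9.95 with tumour in CD206hi KCs (difference -0.60, adjusted p = 0.117), and differed by 0.19 with overlapping groups in CD206+ KCs. Ndrg1 was also separate in CD206hi KCs, at 11.71 to 12.58 without and 11.47 to 11.68 with tumour (difference -0.47, adjusted p = 0.316). Hilpda, a lipid droplet protein that slows lipolysis, was separate in CD206+ KCs, at 10.11 to 10.30 without and 10.53 to 10.63 with tumour (difference 0.35, adjusted p = 0.316), and Mxi1, a MYC antagonist, in CD206hi KCs (difference 0.56, adjusted p = 0.236). Mxi1 differed by 0.13 with overlapping groups in CD206+ KCs. Adm (adrenomedullin), P4ha2 and Ddit4 (an inhibitor of mTORC1) overlapped in both subsets, with differences between -0.33 and 0.26, of which that of Ddit4 in CD206hi KCs (0.14) turned to -0.02 with median centring and -0.23 with quantile normalization.

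Markers of other cells moved with tumour in the same libraries. Of 18 epithelial genes tested, 14 rose in CD206+ and 17 in CD206hi KCs, and their summed level went from 11.10 to 11.99 without tumour to 15.46 to 15.66 with it in CD206+ KCs and from 11.21 to 11.65 to 15.91 to 16.02 in CD206hi KCs. Monocyte markers (4 of 9 rose in each subset) and neutrophil markers (5 of 14 and 5 of 13 rose) were also higher, with monocyte sums of 13.82 to 15.24 without and 15.46 to 15.70 with tumour in CD206+ KCs, and of 14.65 to 15.25 and 15.55 to 15.72 in CD206hi KCs. Hepatocyte markers fell (9 and 11 of 15), and the summed level of endothelial markers in CD206hi KCs was 17.84 to 18.45 without and 17.13 to 17.48 with tumour. B cell markers fell (4 of 5 and 2 of 6), as did 4 of 13 endothelial and 3 of 10 stellate markers in CD206hi KCs. Of 15 KC markers 3 fell in CD206+ KCs, where their summed level was 20.83 to 21.19 without and 20.32 to 20.42 with tumour, and none passed in CD206hi KCs. The part of RNA from these cells in the values above was not tested.

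The Id3 comparison gave small differences of both signs. Sex and genotype cannot be told apart in it, as Xist and Ddx3y show below, so differences of the members cannot be credited to the deletion alone. Id3 itself stood at 12.58, 12.46 and 12.82 in Id3f/f and at 9.83 and 9.82 in Clec4fCreId3f/f KCs, and fell by 2.80 (limma adjusted p = 1.4e-06). Clec4f, whose locus drives the Cre, fell by 1.52, from 17.59 to 17.71 in controls to 16.11 and 16.13. Of the 34 members 5 passed the test (14.7%), beside 6.44% of all 12833 genes tested (3.08% higher and 3.37% lower), and 10 had an unadjusted p under 0.05, beside 23.6% of all genes. Pdk1, Pfkfb4 and Ddit4 rose, and Ldha and Hilpda fell. The median difference was 0.03 over the glycolytic members, of which 11 of 21 were higher, and 0.05 over the other hypoxia members, of which 7 of 13 were higher, where all genes had a median near 0 (0.0014). The genotypes did not overlap for 12 members (35.3%), 8 above and 4 below, beside 41.9% of all genes (20.2% above and 21.7% below).

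Hilpda had 10.08, 10.05 and 10.22 in Id3f/f and 9.47 and 9.46 in Clec4fCreId3f/f KCs. Both deleted samples lay well below all controls, and the fall was 0.65 in size (difference -0.65, SE 0.09, 95% interval -0.86 to -0.44, fold 0.636, adjusted p = 0.00618). It passed in 9 of 11 alternatives, the exceptions being those with a single Clec4fCreId3f/f sample. In this comparison the replicate block leaves the third Id3f/f sample without weight and gives the same differences as leaving that sample out. The tallies of alternatives in this comparison therefore count that subset of samples more than once. Ddit4 had 9.92, 9.98 and 9.45 in controls and 10.62 and 10.57 in deleted samples. Both lay above all controls, of which the third was the lowest, with a difference of 0.81 (SE 0.15, fold 1.75, adjusted p = 0.0165, 8 of 11 alternatives).

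Ldha had 14.48, 14.47 and 14.57 in Id3f/f and 14.17 and 14.15 in Clec4fCreId3f/f KCs, a difference of -0.35 (SE 0.07, fold 0.786, adjusted p = 0.0259) with no overlap. The call held in 6 of 11 alternatives. Aldoa and Tpi1, upstream in the pathway, were lower too without passing, at -0.23 (15.09, 15.07 and 15.01 against 14.86 and 14.80, adjusted p = 0.0859) and -0.23 (13.43, 13.37 and 13.33 against 13.17 and 13.12, adjusted p = 0.104). Gapdh, with 15.57, 15.47 and 15.33 against 15.34 and 15.32, overlapped, and its difference of -0.12 turned to 0.02 with quantile normalization. Without the third Id3f/f sample, Aldoa (adjusted p = 0.00863), Tpi1 (0.0241) and Gapdh (0.0319) passed by limma, and 8 members were called as the genes called over the whole table went from 827 to 1850, while over all alternatives the adjusted p of these 3 reached 0.512, 0.514 and 0.939. Eno1, Pkm and Pgk1 differed by 0.05, 0.03 and -0.03, with 95% intervals within -0.25 and 0.28, and that of Pkm turned just below 0 with median centring.

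Pdk1 had 8.83, 8.85 and 8.76 in controls and 9.24 and 9.12 in deleted samples (difference 0.36, SE 0.09, fold 1.29, adjusted p = 0.0487, 4 of 11 alternatives). Pfkfb4 had 7.94, 8.25 and 8.18 in controls and 8.58 and 8.53 in deleted samples (difference 0.43, SE 0.11, fold 1.35, adjusted p = 0.049, 3 of 11 alternatives). Both were apart from all controls, and both sat close to the threshold. Pfkfb3 differed by -0.13 with overlapping groups.

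The genes with the largest tumour differences gave little in the Id3 comparison. Hif1a had 10.23, 10.52 and 10.36 against 10.52 and 10.50 (difference 0.14, 95% interval -0.09 to 0.38), Egln3 4.48, 4.37 and 4.55 against 4.41 and 4.37 (difference -0.08), Vegfa a difference of 0.05, and Slc16a3 9.46, 9.61 and 9.38 against 9.65 and 9.67 (difference 0.18, adjusted p = 0.328). Hif1a, Egln3 and Vegfa overlapped between genotypes. Slc2a1 and Slc2a3 differed by -0.15 and 0.16, and the hexokinases by -0.06 to 0.20. P4ha1 (0.23, adjusted p = 0.158) and Adm (0.30, adjusted p = 0.109) were higher in both deleted samples than in all controls. The remaining members differed by at most 0.23 in size.

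**Figure D5:**
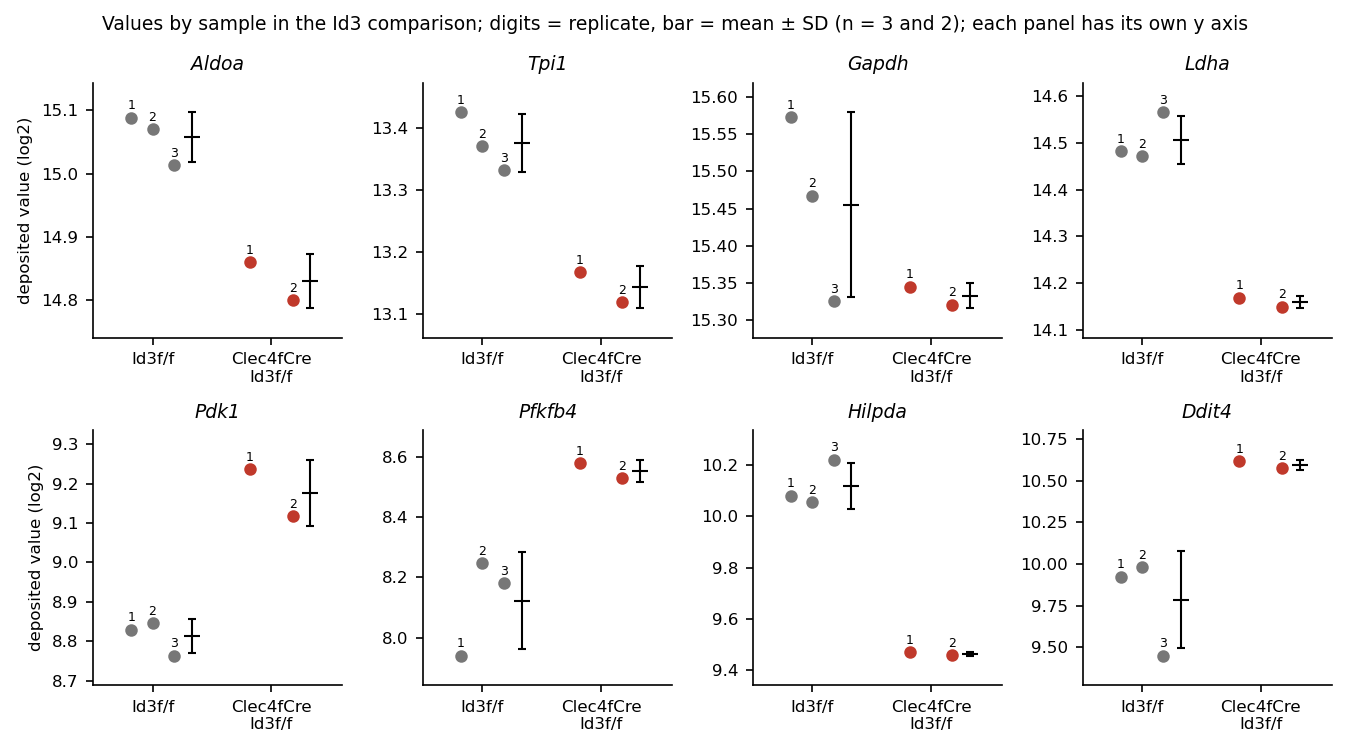
Values of 8 genes (y axis, log2, each panel with its own range) in the 3 Id3f/f and 2 Clec4fCreId3f/f samples, with the replicate as a digit and the mean ± SD as a bar. Ldha and Hilpda lie below and Pdk1, Pfkfb4 and Ddit4 above all controls, Aldoa and Tpi1 lie below them without passing the test, and Gapdh overlaps.

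Each of these 5 calls was lost when either Clec4fCreId3f/f sample was left out, which leaves 1 sample that is assumed to vary as the others do, and with which 17 or 19 genes passed over the whole table in place of 827. Xist stood at 6.33 to 6.38 in Id3f/f and 9.76 to 9.84 in Clec4fCreId3f/f samples, and Ddx3y at 9.43 to 9.46 and at most 7.01, so sex and genotype cannot be told apart here. Pgk1 is X-linked and differed by -0.03, which does not bear on sex in the other members. Of 15 KC markers 4 were higher and 3 lower in the deleted samples, Id3 and Clec4f among the lower. Of 7 erythroid markers 4 were lower, with summed levels of 15.17 to 16.55 in controls and 14.39 to 14.84 in deleted samples. The monocyte markers summed to 13.60 to 13.86 and 12.84 to 12.96, but of 7 tested only 1 passed, as lower, and their median difference was -0.02. Of 13 endothelial markers 1 was higher and 2 were lower. The part of these cells in the differences was not tested. The dissociation stress genes summed to 13.71 to 13.73 in controls and to 13.71 in both deleted samples.

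Beyond the members, 98 other genes of glucose metabolism and the HIF response were listed in 7 groups. In CD206+ KCs 2 of 87 tested rose and 3 fell, where 2.55% of all genes tested rose and 0.998% fell. In CD206hi KCs 5 of 94 rose and 5 fell (5.21% and 2.03% of all genes). In the Id3 comparison 6 of 85 were higher and 6 lower in Clec4fCreId3f/f KCs (3.08% and 3.37%). Arg1, arginase, rose with tumour in both subsets, by 2.45 in CD206+ KCs (adjusted p = 0.00168) and by 1.69 in CD206hi KCs (adjusted p = 0.0218, 9 of 12 alternatives). The lactate transporter Slc16a1 (MCT1) gave 9.20, 8.76 and 8.23 without and 10.03, 10.18 and 10.03 with tumour in CD206hi KCs and rose by 1.35 (adjusted p = 0.0245, 9 of 12 alternatives). In CD206+ KCs it was higher by 1.11 and did not pass (adjusted p = 0.0934). Hkdc1 (a hexokinase-like protein, 2.16) and Edn1 (endothelin, 1.57) also rose in CD206hi KCs, from 3.61 and 5.90 without tumour, and the call of Edn1 held in 4 of 12 alternatives. Without tumour Hkdc1 stood at 3.34, 3.34 and 4.14 there, close to the filter on low values (3.32), and in CD206+ KCs it was not tested. Vldlr (a lipoprotein receptor), counted among the 5, was under the filter on low values in every tumour-free sample (2.90 to 2.99) and was tested only through the tumour samples (4.11 to 4.88), so it had to differ.

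Ldhb, the lactate dehydrogenase subunit that favours pyruvate, changed in opposite directions in the subsets. It gave 7.68, 7.59 and 7.78 without and 9.67, 9.33 and 9.30 with tumour in CD206+ KCs and rose by 1.75 (SE 0.21, adjusted p = 0.00343), a call that held in 12 of 12 alternatives. In CD206hi KCs it gave 10.14, 10.61 and 10.65 without and 9.49, 9.46 and 9.38 with tumour and fell by 1.02 (SE 0.20, adjusted p = 0.0225), a call that held in 8 of 12 alternatives, with an adjusted p of up to 0.114. The tumour samples of the subsets lay close to each other, at 9.30 to 9.67 and 9.38 to 9.49. The difference between the subsets was not tested. Endothelial markers summed to 14.15 to 15.07 in tumour-free CD206+ and 17.84 to 18.45 in tumour-free CD206hi libraries, and epithelial sums were higher with tumour in both subsets. The part of RNA from other cells in Ldhb and in the other genes of these lists was not tested.

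Of the gluconeogenesis list 2 of 6 genes tested fell in CD206+ KCs and 2 of 7 in CD206hi KCs, with medians of -0.21 and -0.08 over the genes tested. The differences in CD206+ and CD206hi KCs were -1.66 and -1.61 for Fbp1 (fructose bisphosphatase), whose calls held in 8 and 11 of 12 alternatives. Pck1 (the gluconeogenic carboxykinase) fell by 1.34 in CD206+ KCs and differed by -1.13 in CD206hi KCs, where it did not pass (adjusted p = 0.0826), and G6pc (glucose 6-phosphatase) differed by -1.36 in CD206hi KCs (adjusted p = 0.0499, 5 of 11 alternatives). Pck2, G6pc3 and Pcx differed by 0.16 at most in size and did not pass in either subset. The glucose transporter Slc2a2 (GLUT2) fell in CD206hi KCs (-1.43, 8 of 11 alternatives), while in CD206+ KCs it differed by -0.42 and did not pass (adjusted p = 0.141). Hepatocyte markers such as Alb were lower in the same samples (-2.29 and -2.06), and their part was not tested. Sex and genotype cannot be told apart in the Id3 comparison. There the glycogen phosphorylases Pygl (0.50) and Pygb (0.64), Pck1 (0.74), the kinase Adpgk (0.47), the lysyl hydroxylase Plod1 (0.38) and the transferrin receptor Tfrc (0.39) rose. Taldo1 of the pentose phosphate pathway (-0.49), the mitochondrial pyruvate carrier Mpc2 (-0.43), Cited2, a brake on HIF (-0.42), Higd1a (-0.45), Nampt (-0.48) and Mif (-0.55) fell. The adjusted p of these 12 lay between 0.0142 and 0.0377 (limma), and all 12 exceeded 0.05 in the fits with a single Clec4fCreId3f/f sample.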

How the data were processed

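RNA-seq of sorted KCs (17 samples, 3 tables) was analysed. Per the submitters' processing notes the authors used STAR 2.7.10a, HTSeq and DESeq2, and the methods name both GRCm39 and mm10. The deposited values are on a log2 scale, normalized within each table, although the tables are named for counts and TPM; they behave as regularized-log values, which is not stated. Depth per sample is therefore unknown. Each comparison was fitted in its own table with limma 3.58.1 in R 4.3.3 (intensity trend, two-sided, Benjamini-Hochberg over all genes tested, threshold 0.05). Genes were tested if at least log2(10) in as many samples as the smaller group. Tables were summarised with Python 3.11.15. The fit was tested on simulated data.

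Alternatives were no filter, a mean value of at least log2(50), median centring, quantile normalization, no trend, a replicate block and each sample left out. The filter at log2(50) is named below as a mean of at least 50 counts, although it was set on the deposited log2 values. In the CD206+ table deviations of same-numbered samples correlated at 0.35, 0.56 and 0.15. Those of tumour-free sample 1 with tumour sample 3 (0.30) and of 3 with 1 (0.16) were similar, so numbers 1 and 3 are not shown to pair. Sample 2 with another number gave -0.53 to -0.25. The block is given beside results it changes, and the labels do not say what a number marks. Transcript lengths, overlaps and shared stretches come from the GRCm38 annotation, and the SMART-Seq kit does not mark strand. Values are given for members that passed, for the member with the largest difference and the most abundant one of each role, and for called genes of the pathway lists; other members whose groups did not overlap were added after their values were seen. Members and lists were chosen with earlier results of these data known. The values of 1 gene of the pathway lists are not reported here.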

Additional observations from a re-analysis of the deposited data

Results flagged for a closer look

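Ldhb, a lactate dehydrogenase subunit, moved in opposite directions with tumour in the KC subsets: its difference was 1.75 on the log2 scale in CD206+ KCs, where all 3 tumour samples lay above all 3 tumour-free samples, and -1.02 in CD206hi KCs, where all 3 lay below. The first call held in 12 of 12 alternatives and the second in 8 of 12, with an adjusted p (limma) of up to 0.114. The difference between the subsets was not tested, because their tables were normalized separately. Markers of other cells also differed with tumour in these libraries, and the part of their RNA in Ldhb was not tested.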

How the results depend on the processing

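If the deposited values are regularized-log values, which is not stated, differences of low genes are understated. Depth per sample is unknown, groups hold 2 or 3 samples, and p-values near 0.05 moved across it. In CD206+ KCs, the replicate block raised the genes called to 1026 and the members called to 6, whereas 0 members passed with no filter, with a mean of at least 50 counts or with no intensity trend, and median centring gave an other hypoxia median of 0.19 and Slc2a1 -0.052. In CD206hi KCs 600 genes passed with a mean of at least 50 counts and 1 member with quantile normalization. There Hk1 (-0.0033), Pfkm (-0.049), Aldoa (-0.035) and Ddit4 (-0.016) changed sign with median centring, and Pfkm (-0.10) and Ddit4 (-0.23) with quantile normalization. In the Id3 comparison 477 genes and 3 members passed with no filter, 3 members with median centring and 2 with quantile normalization. Its other hypoxia median was 0.077 with a mean of at least 50 counts and 0.019 with median centring. Pfkm (0.0047) and Gapdh (0.015) changed sign with quantile normalization and Pkm (-0.0029) with median centring. Correlations of same-numbered samples were -0.05, -0.13 and -0.05 in CD206hi KCs and -0.07 and -0.10 in the Id3 comparison. They do not show that numbers pair samples there, and they cannot exclude it. With 2 Clec4fCreId3f/f samples the deviations mirror each other, so each correlation has an equal one of opposite sign. The replicate block gave 0 members in CD206hi KCs, and in the Id3 comparison 2089 genes, 7 members and an other hypoxia median of 0.11, with Pfkm (0.0020), Pkm (-0.094), Bnip3 (0.043) and Mxi1 (0.14) of changed sign and Id3f/f replicate 3, which has no partner, without weight. In CD206+ KCs it changed no call of members beyond the 6 named. With 1 sample left out at a time, a lone Clec4fCreId3f/f sample was assumed to vary like the others. In CD206+ KCs the genes called ran from 228 to 1018, the members called from 0 to 3, the glycolytic median from 0.048 to 0.36 and the other hypoxia median from 0.050 to 0.39. Members whose difference changed sign there were Adm (-0.056 to 0.54), Aldoa (-0.011 to 0.40), Gapdh (-0.019 to 0.43), Mxi1 (-0.21 to 0.43), Ndrg1 (-0.051 to 1.00), Slc2a1 (-0.16 to 0.14) and Slc2a3 (-0.21 to 0.078). In CD206hi KCs the genes called ran from 579 to 3653, the members called from 0 to 6, the glycolytic median from 0.17 to 0.31 and the other hypoxia median from -0.22 to 0.16. Members whose difference changed sign there were Adm (-0.38 to 0.16), Ankrd37 (-0.047 to 0.98), Ddit4 (-0.26 to 0.54), Hilpda (-0.36 to 0.034), Hk1 (-0.18 to 0.39), Hk3 (-0.38 to 0.0084), Pfkl (-0.028 to 0.41), Pfkm (-0.20 to 0.27) and Pgk1 (-0.017 to 0.44). In the Id3 comparison the genes called ran from 17 to 1850, the members called from 0 to 8, the glycolytic median from 0.002 to 0.061 and the other hypoxia median from 0.0046 to 0.11. Members whose difference changed sign there were Bnip3 (-0.15 to 0.043), Egln1 (-0.17 to 0.0046), Hk1 (-0.016 to 0.25), Mxi1 (-0.17 to 0.14), P4ha2 (-0.028 to 0.33), Pfkm (-0.063 to 0.058), Pfkp (-0.11 to 0.12), Pgk1 (-0.10 to 0.014), Pkm (-0.094 to 0.12) and Slc2a1 (-0.34 to 0.045). The cause of these changes was not tested.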
